A study of Drosophila melanogaster with 2 samples.

Results

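The 10 genes described here are named members of the Toll and Imd pathways of innate immunity: PGRP-SA, PGRP-LC, PGRP-LB, spz, Tl, imd, cact, dl, Dif and Rel. They were taken by name from 13945 protein-coding genes on the arms 2L, 2R, 3L, 3R, 4 and X, by a rule that uses no measured value, though earlier results of these data were known when the genes were chosen. All 10 matched a single gene of the annotation. The measurement was chromatin immunoprecipitation followed by sequencing (ChIP-seq) of CG17806, a zinc finger protein. There was 1 group: whole Drosophila melanogaster pupae aged 24 hours, stably carrying CG17806 with GFP at its C-terminus, precipitated through the GFP tag. It comprised 2 biological replicates, so no condition, stage or tissue could be set against another, and signal from different tissues of the animal cannot be told apart.

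The authors' lists held 30000 peaks for replicate 1, for replicate 2 and for both replicates called together (the pooled list). The fourth list, of 7645 peaks, kept those that passed a filter on reproducibility, the irreproducible discovery rate (IDR). All 7645 of these were the strongest peaks of the pooled list, so the IDR and pooled lists are not independent of each other. Each peak has a summit, the position of highest signal, and ranks below count from 1 for the highest signal within a list. Read depth is unknown, because the lists hold no read counts.

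In flies the Toll pathway answers mainly to fungi and Gram-positive bacteria, and it also sets the dorsoventral axis of the embryo. Its receptor is opened by a cleaved cytokine, after which the inhibitor Cactus is degraded and the NF-kappaB factors Dorsal and Dif enter the nucleus. The Imd pathway answers mainly to Gram-negative peptidoglycan and ends in cleavage of the NF-kappaB factor Relish. Both pathways switch on genes for antimicrobial peptides, chiefly in the fat body.

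Of the 10 genes, 6 were bound: the IDR list had a summit no more than 500 bp from an annotated start site of cact, imd, Rel, Dif, PGRP-LB and dl. Over all protein-coding genes the share was 19.5%. The strongest start-site summit was that of cact, at IDR rank 700, and those of PGRP-LB and dl lay near the end of the list, at ranks 6939 and 7142. No IDR summit lay within 500 bp of a start site of Tl, spz, PGRP-LC or PGRP-SA. The strongest summit in any of the genes was in an intron of Dif, at IDR rank 92, and Tl held 3 intronic summits at ranks 1501 to 1968.

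The windows below are 101 bases centred on IDR summits, in the direction of the gene, from the RefSeq copy of the Release 6 assembly (dm6). Capitals mark each run of 8 or more A or T. They were chosen to show how A and T are arranged at strong and at weak summits, in introns and near start sites. The second Tl window is shown because it holds no such run.

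Dif, strongest intronic summit, chr2L:17430169-17430269, minus strand: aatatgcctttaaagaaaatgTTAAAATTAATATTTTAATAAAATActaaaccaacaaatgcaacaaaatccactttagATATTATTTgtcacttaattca

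cact, summit between its start sites, chr2L:16325732-16325832, minus strand: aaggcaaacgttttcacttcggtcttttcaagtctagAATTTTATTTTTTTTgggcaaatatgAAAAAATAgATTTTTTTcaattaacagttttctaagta

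Tl, intronic summit of rank 1501, chr3R:26832029-26832129, plus strand: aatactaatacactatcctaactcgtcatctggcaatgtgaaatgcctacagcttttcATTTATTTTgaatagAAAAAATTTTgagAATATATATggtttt

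Tl, intronic summit of rank 1619, chr3R:26821275-26821375, plus strand: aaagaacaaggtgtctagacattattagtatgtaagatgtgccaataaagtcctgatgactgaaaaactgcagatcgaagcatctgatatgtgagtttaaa

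Rel, summit upstream of the first start site, chr3R:9048304-9048404, minus strand: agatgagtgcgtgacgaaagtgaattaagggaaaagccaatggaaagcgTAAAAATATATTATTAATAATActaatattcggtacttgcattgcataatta

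PGRP-LB, summit upstream of the last start site, chr3R:11454626-11454726, minus strand: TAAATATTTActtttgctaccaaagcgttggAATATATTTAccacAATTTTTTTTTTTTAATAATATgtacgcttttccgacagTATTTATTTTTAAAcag

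The recognition proteins come first in the pathway. PGRP-SA (FBgn0030310; X, 11561643 to 11562779, plus strand) encodes a secreted receptor for peptidoglycan that activates Toll signalling. It had no IDR summit in the gene or within 500 bp of its start sites. The pooled list placed a summit 57 bp upstream of the first start site at rank 8722, just below the 7645 peaks of the IDR list. In replicate 1 the summit was 10 bp upstream at rank 7502, and in replicate 2 it was 57 bp upstream at rank 15382. Its −log10 q was 4.46 in replicate 1, the ceiling of that list, and 0.853 in replicate 2. A stronger IDR summit lay 1170 bp upstream, at rank 1487, with ranks of 1342 in replicate 1 and 1929 in replicate 2. No other gene had a start site nearer to it than PGRP-SA.

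PGRP-LC (FBgn0035976; 3L, 9338810 to 9348336, plus strand) encodes the transmembrane receptor of the Imd pathway. It was the other recognition gene without an IDR summit. Its strongest pooled summit within 500 bp of a start site was 18 bp downstream of an inner start site, at rank 10469. Replicate 1 had that summit at the same position and rank 8204, and replicate 2 had none within 100 bp. The summit at the first start site, 368 bp downstream, was found in both replicates but ranked only 19357 in replicate 1 and 17963 in replicate 2.

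PGRP-LB (FBgn0037906; 3R, 11452849 to 11460552, minus strand) encodes an amidase that degrades peptidoglycan and so limits the Imd response. Its IDR summit, at rank 6939, lay 347 bp upstream of the last of its 3 start sites and in an intron of the longer transcripts. Replicate 1 had it at rank 7877 and replicate 2 at rank 5649, with the summits 23 bp apart. Neither of the other two start sites of PGRP-LB had a summit within 500 bp in any list.

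The cytokine and its receptor had no start-site summit in the IDR list. spz (FBgn0003495; 3R, 27064990 to 27070070, minus strand) encodes Spätzle, the ligand of Toll. Its pooled summit lay 288 bp upstream of its only start site at rank 11716. Replicate 1 had it at rank 13313 and replicate 2 at rank 9829, 57 bp apart. A summit 660 bp downstream, in the 5′ UTR, ranked 5383 in replicate 2 and had no partner within 100 bp in replicate 1.

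Tl (FBgn0262473; 3R, 26799041 to 26842403, plus strand) encodes the receptor Toll and has a single annotated start site. Its 3 IDR summits were all intronic, 708, 22284 and 33038 bp downstream of that site. The nearest ranked 1968 in the IDR list, 2312 in replicate 1 and 1573 in replicate 2. The middle one ranked 1619 in the IDR list, 1880 in replicate 1 and 1399 in replicate 2. The farthest ranked 1501 in the IDR list, 1549 in replicate 1 and 1499 in replicate 2. The positions of these 3 summits differed by 3 to 44 bp between replicates, against a median of 22 bp over all IDR peaks. At the start site itself there were only weak calls. The best lay upstream: pooled rank 10218 at 481 bp, replicate 1 rank 16294 at 90 bp and replicate 2 rank 8214 at 401 bp. The 2 replicate calls were thus different summits. Replicate 1 had a further summit of rank 11824, 581 bp upstream. A further 4 intronic summits, 2597 to 11493 bp downstream, were in both replicates and the pooled list but not in the IDR list, at pooled ranks 9499 to 15756.

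imd (FBgn0013983; 2R, 18409796 to 18413599, minus strand) encodes the death domain adaptor that gives the Imd pathway its name. Its IDR summit, at rank 2158, lay 266 bp upstream of the first start site. Replicate 1 ranked it 1818 and replicate 2 ranked it 3584, with the summits 10 bp apart. The summit is nearer to Dp1, a gene transcribed in the opposite direction whose start site is 186 bp away. A second summit, 398 bp upstream of the inner start site of imd, ranked 14256 in replicate 1 and 6045 in replicate 2, and was not in the IDR list.

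cact (FBgn0000250; 2L, 16313036 to 16326207, minus strand) encodes the IkappaB protein Cactus, which holds Dorsal and Dif in the cytoplasm. Its IDR summit lay 157 bp upstream of the third of its 4 start sites, 425 bp into the gene, in an intron of the longer transcripts. It ranked 700 in the IDR list, 770 in replicate 1 and 571 in replicate 2, and the replicate summits were 4 bp apart. By this rank cact stood at place 372 of the 2713 bound protein-coding genes, against places 915 for imd, 1339 for Rel, 1694 for Dif, 2508 for PGRP-LB and 2577 for dl. The replicate lists held 9 summits in cact in replicate 1 and 5 in replicate 2, and the IDR summit was the only one with a partner within 100 bp.

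dl (FBgn0260632; 2L, 17436830 to 17450364, minus strand) encodes Dorsal. Its IDR summit lay 421 bp downstream of the first start site, in the 5′ UTR, at rank 7142. It ranked 7426 in replicate 1 and 7720 in replicate 2, and the summits were 29 bp apart. A stronger IDR summit lay 575 bp upstream of the same start site, just outside the distance counted here. It ranked 1959 in the IDR list, 1745 in replicate 1 and 3244 in replicate 2. Its nearest start site, 445 bp away, is that of lncRNA:CR46204, which is transcribed away from dl. The next IDR summit beyond 500 bp was that of Tl, at 708 bp, and the bound summit nearest to the limit was that of dl itself, at 421 bp.

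Dif (FBgn0011274; 2L, 17413248 to 17433161, minus strand) encodes the NF-kappaB factor of the adult Toll response and begins 3668 bp beyond the 3′ end of dl. Of protein-coding genes, with a median length of 2166 bp, 1.96% held 5 or more IDR summits. Dif held 5 over 19914 bp. The strongest, in an intron 2942 bp downstream of the first start site, ranked 92 in the IDR list, 113 in replicate 1 and 76 in replicate 2. It lay 513 bp from the start site of lncRNA:CR44409, a non-coding gene within that intron. A weaker summit 144 bp upstream of the same lncRNA ranked 6623 in the IDR list, 7188 in replicate 1 and 6376 in replicate 2.

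Only the inner start site of Dif had a summit within 500 bp in any list. There the IDR summit was 9 bp downstream, at rank 4474. The replicates ranked it differently, at 3943 in replicate 1 and 7963 in replicate 2, so that only replicate 1 had it among its strongest 7645. An intronic summit 6589 bp downstream of this start site ranked 2879 in the IDR list, 3139 in replicate 1 and 2067 in replicate 2. Another, 824 bp downstream, ranked 6844 in the IDR list, 14222 in replicate 1 and 4640 in replicate 2, the widest gap in rank among the 13 IDR summits of the 10 genes.

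A further Dif summit was in both replicate lists but not in the pooled list. It lay 1755 bp downstream of the first start site in replicate 1, at rank 3634, and 37 bp away in replicate 2, at rank 4417. No interval of the pooled or IDR list covers it. Over the genome, 5689 of the strongest 7645 replicate 1 peaks had a partner among the strongest 7645 of replicate 2. Of those, 35 had no pooled summit within 100 bp, and 21 of these lay in no pooled interval.

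Rel (FBgn0014018; 3R, 9044183 to 9047977, minus strand) encodes Relish. Its IDR summit, at rank 3416, lay 377 bp upstream of the first of its 4 start sites. Replicate 1 ranked it 4113 and replicate 2 ranked it 2680, with the summits 51 bp apart. The summit is also 291 bp upstream of the start site of Mst85C and 297 bp downstream of that of Nmdmc. Both start sites are closer to it than that of Rel. No pooled or IDR summit lay inside Rel, and replicate 1 alone had one there, at rank 25201.

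**Figure D1:**
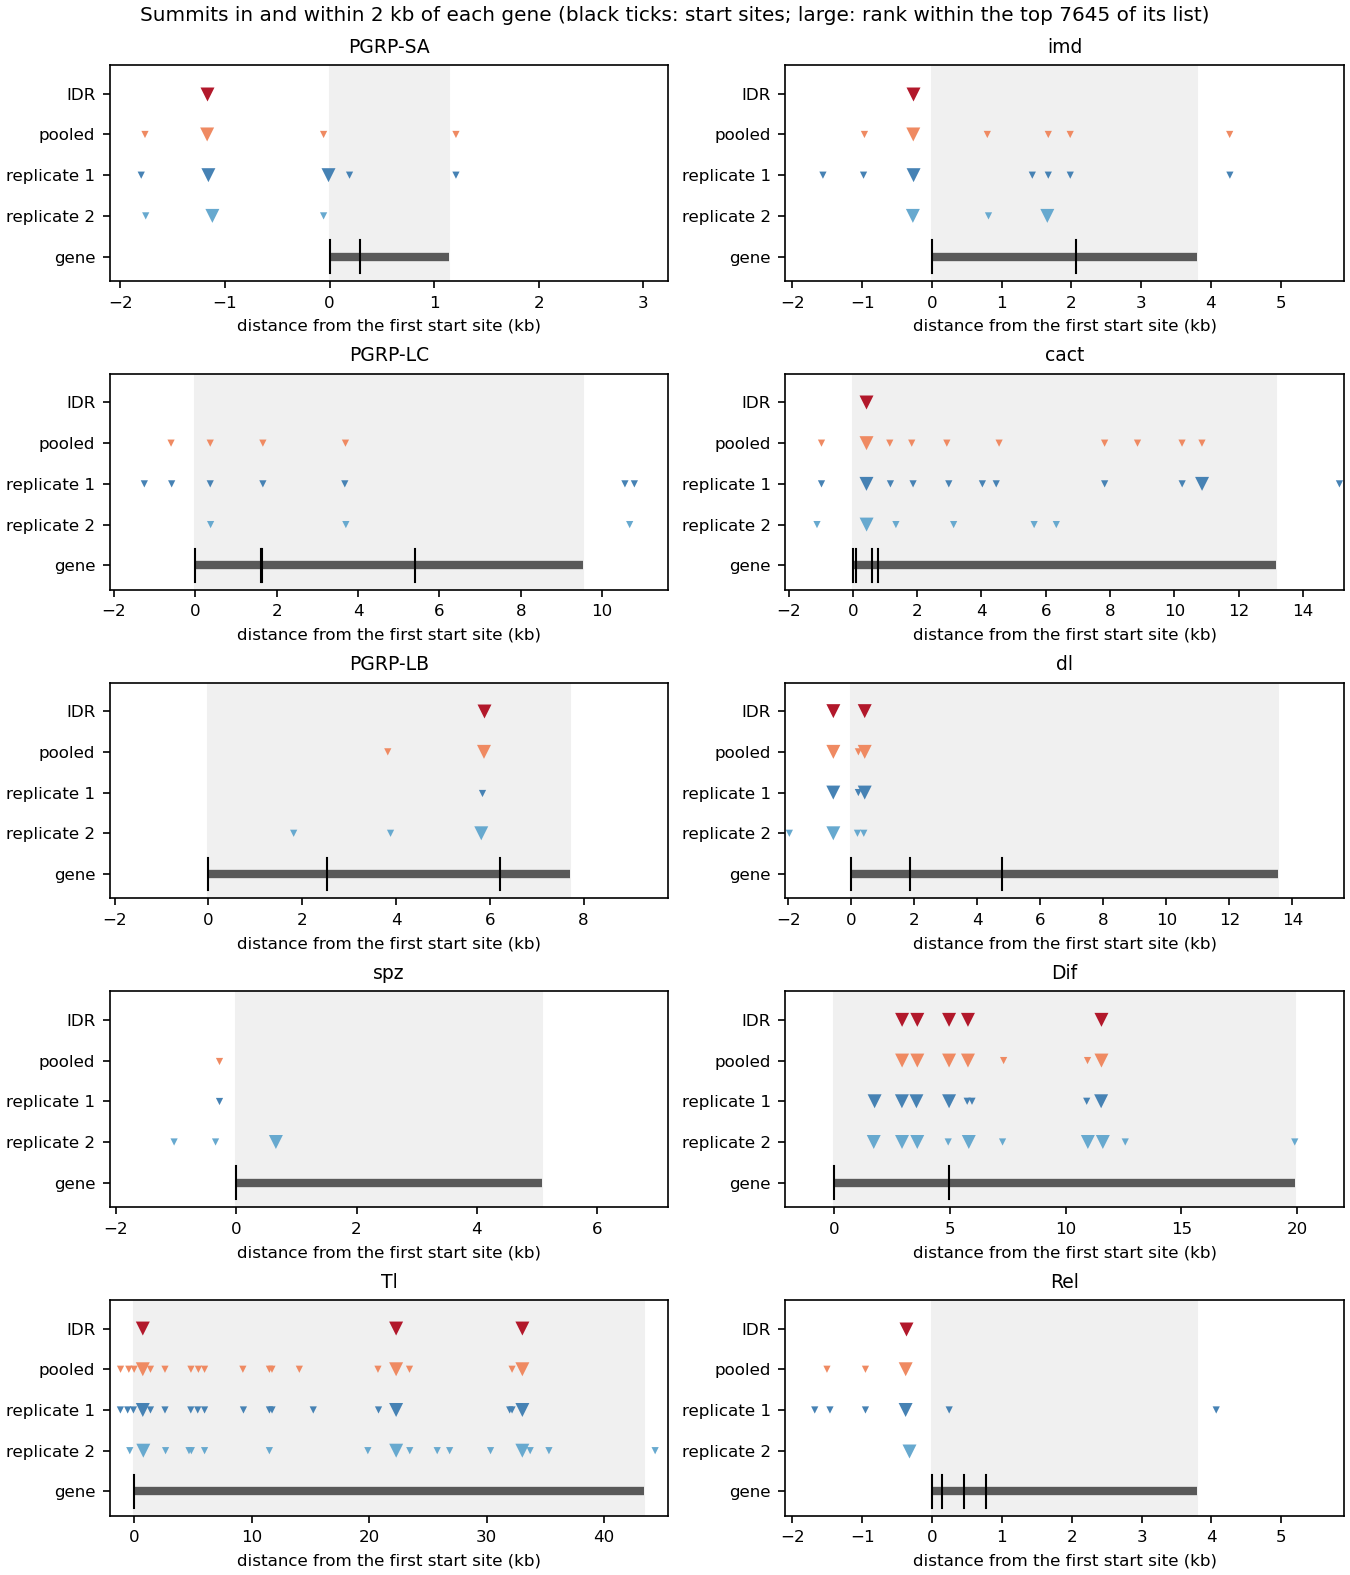
Each panel shows 1 gene, drawn to scale as a grey bar in the direction of transcription, with the distance from its first start site in kb on the horizontal axis and the 4 lists on the vertical axis. Each triangle is a summit. Large ones rank within the top 7645 of their list: the 5 IDR summits of Dif and the 3 of Tl stand inside the genes, while PGRP-SA has its only large IDR mark 1170 bp upstream.

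In the weaker lists all 10 genes had a summit within 500 bp of a start site. The background was also higher there, at 45.3% of protein-coding genes in the pooled list, 47.2% in the list of replicate 1 and 42.1% in that of replicate 2. The deposited −log10 q goes down to 0.405, 0.735 and 0.146 in these lists. The pooled ranks of the 4 genes without an IDR start-site summit were 8722 for PGRP-SA, 10218 for Tl, 10469 for PGRP-LC and 11716 for spz. By best rank, PGRP-SA and PGRP-LC ranked better in replicate 1, and spz and Tl in replicate 2, as the plot of ranks shows. For PGRP-LC and Tl the best summits of the replicates were different ones, so the same site is not compared. At PGRP-LC they lay 18 bp downstream of an inner start site in replicate 1 and 377 bp downstream of the first in replicate 2. At Tl they lay 90 bp upstream in replicate 1 and 401 bp upstream in replicate 2.

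**Figure D2:**
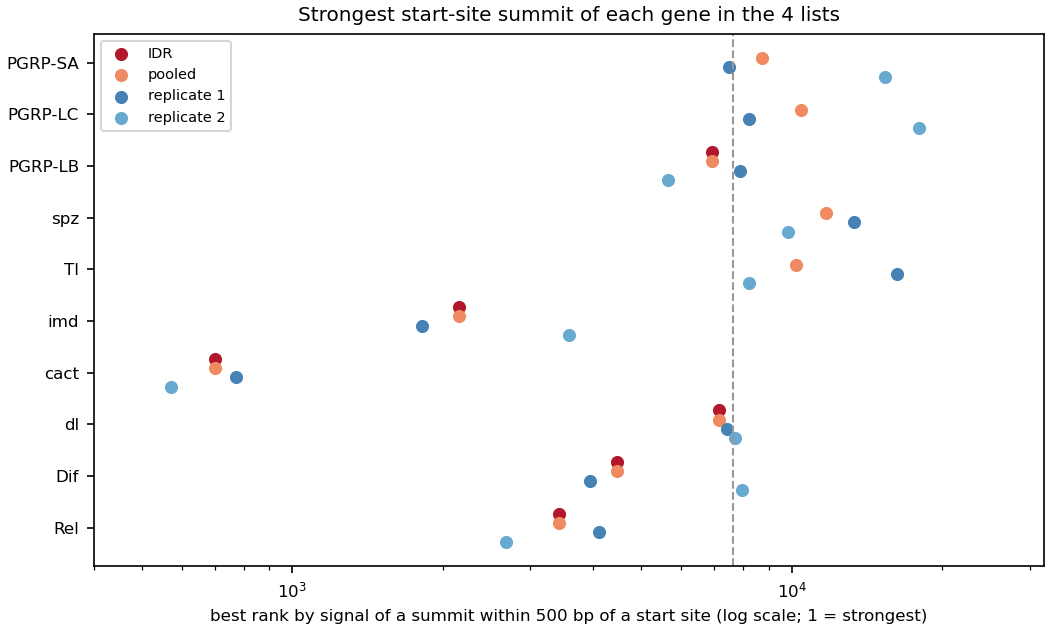
For each gene, the points give the best rank by signal of a summit within 500 bp of a start site, on a log axis, in each of the 4 lists, and the dashed line marks rank 7645. The cact points lie between 571 and 770, and those of Tl, spz and PGRP-LC lie beyond the dashed line.

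The number of bound genes depended on the distance and on neighbouring genes. Within 250 bp only cact and Dif were bound, that is 2 of 10 against 14.7% of protein-coding genes. The start-site summits of the 6 bound genes lay a median of 306 bp from the start site (range 9 to 421), against a median of 164 bp over the 2713 bound protein-coding genes. Of the 6 summits, 4 were upstream (66.7%, against 84.9% of all bound genes). With each summit given only to the nearest start site, imd and Rel were lost, which left 4 of 10 against 14.6% of protein-coding genes. Among the 1911 strongest peaks of the IDR list only cact was bound, that is 1 of 10 against 6% of protein-coding genes.

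The median length of the 10 genes was 8615 bp, with a range from 1137 bp for PGRP-SA to 43363 bp for Tl, and their median number of start sites was 2.5. Over all protein-coding genes the medians were 2166 bp and 1 start site. All 6 bound genes were among the 8 with 2 or more start sites. Of all protein-coding genes with 2 or more start sites, 33.2% were bound.

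Inside the genes, 5 of the 10 held an IDR summit: cact, dl, Dif, Tl and PGRP-LB. In cact, dl and PGRP-LB it was the same summit already counted at a start site. Only Dif and Tl held IDR summits more than 500 bp from their own start sites. The share over all protein-coding genes was 14.2%, and 3.85% held 3 or more, as Dif and Tl did. The 10 genes together held 0.909 IDR summits per 10 kb, against 0.516 over all protein-coding genes. Of the 11 summits inside the genes, 8 were in Dif and Tl. This density leans on Dif, which held 5 of the 11 in 19914 of the 121032 bp of the 10 genes. Tl held 3 in 43363 bp.

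The 13 IDR summits in or near these genes were found in both replicates. Each had a partner within 100 bp in both replicate lists, as did 92.3% of all IDR peaks. The replicate summits lay a median of 29 bp apart (range 3 to 74), against 22 bp over all IDR peaks. The ranks in the replicates differed by a median ratio of 1.47, against 1.34 over all IDR peaks. With partners limited to the strongest 7645 peaks of each replicate, 9 of the 13 had both (69.2%), near the 74.6% of all IDR peaks. The IDR list was made from the replicate lists, so this agreement is built into it in part.

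The sequence at these summits was rich in A and T, with exceptions. The share of A or T in the 50 bp on each side averaged 70.6% ± 10.1 at the 13 summits and 68.9% ± 8.14 over all 7645 IDR peaks (SD across peaks). In flanks 200 to 300 bp away the values were 56.7% ± 6.91 at the 13 summits and 54.6% ± 6.98 over all IDR peaks. The centre was richer than the flanks at 11 of the 13 (84.6%), near the 88.5% of all IDR peaks. The rank 92 summit of Dif had 80.2% A or T, with 49.5% in its flanks, and the window printed above holds a run of 25 A or T bases. The Dif summits at ranks 2879 and 6623 also had 80.2%.

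The summit at the inner Dif start site was the poorest in A and T of the 13. It had 43.6%, with 62.4% in its flanks, and only 0.785% of IDR peaks had a lower share. Its longest run of A or T was 3 bases, against a median of 12 over the 13 summits and of 11 over all IDR peaks. The Dif summit at rank 6844 was the other one with a centre poorer than its flanks, at 64.4% and 68.3%. At dl the 2 values were 62.4% and 61.9%.

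**Figure D3:**
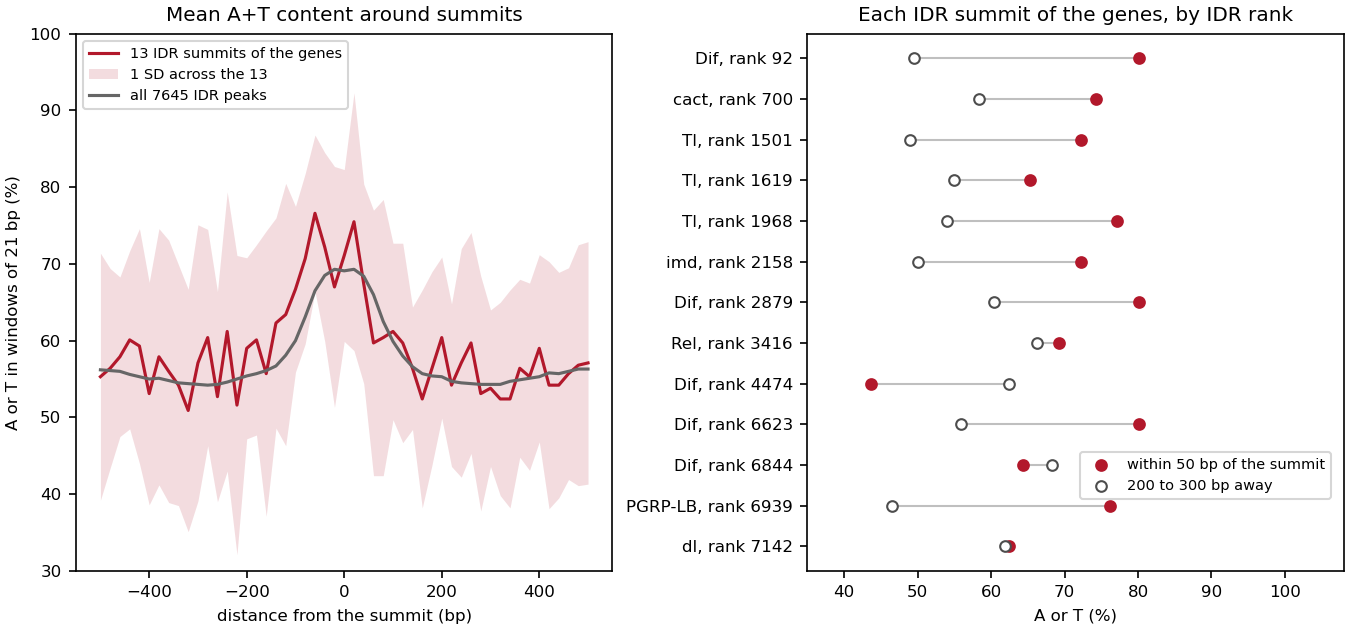
The left panel plots the mean share of A or T in windows of 21 bp against distance from the summit in bp, for the 13 IDR summits of the genes (line with 1 SD) and for all 7645 IDR peaks. The right panel gives each of the 13 summits, by IDR rank, with its centre (filled) and flanks (open): 11 of 13 centres lie to the right, and the Dif summit at rank 4474 lies far to the left.

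Short motifs were searched on both strands in the 101 bases around each of the 13 summits. The TATA box word TATAAA was found at 3 of the 13, those of imd, dl and the Dif summit at rank 2879, and at 25.2% of all IDR summits and 8.84% of windows 250 bp away. It can overlap a run of A or T. A run of 8 or more A or T was found at 11 of the 13, at 83.0% of all IDR summits and at 44.0% of windows 250 bp away. No summit held a kappaB-like site, the element that Dorsal, Dif and Relish recognise, which 0.445% of all IDR summits and 0.903% of the windows 250 bp away held.

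The Dref site TATCGATA was in none of the 13 and in 0.549% of all IDR summits, against 0.327% of windows 250 bp away. The GATA site, spelled GATAAG, was at 1 of the 13, the Dif summit of rank 6844, and at 4.92% of all IDR summits and 4.41% of windows 250 bp away. The E box, spelled CACGTG, was at the same Dif summit, and at 0.523% of all IDR summits and 1.12% of those windows. The Su(Hw) core, spelled TGCATA, was at the Rel summit, and at 9.06% of all IDR summits and 6.06% of those windows. The GAGA site, spelled GAGAG, was at the inner Dif start site, and at 8.15% of all IDR summits and 16.5% of those windows.

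Among 90 other genes of both pathways, 19 were bound (21.1%), against 19.5% of all protein-coding genes. The 21.1% mixes unlike roles: it was 0% for the antimicrobial peptide genes and 16.7% to 45.5% for the other roles. The 19 rest on 18 summits, and 10 of the 19 have another gene's start site within 500 bp of the summit. With the neighbour in brackets, these were POSH (Ns2), GNBP3 (orb2), Spn27A (CG34310), pll (TfIIA-L), Deaf1 (Fibp), Traf6 (GIIIspla2) and Charon (CG4887). The others were IKKbeta (CG5013 and lncRNA:CR45212), and GNBP1 and GNBP2, which neighbour each other. The share with such a neighbour was not counted over all bound protein-coding genes. The 10 of 19 therefore cannot be read as particular to these pathways. None of the 24 antimicrobial peptide genes was bound in the IDR list, with AttA and AttB as the first examples. In the pooled list 3 of the 24 had a summit within 500 bp (12.5%), and Drsl3 and Drsl4 share 1 of these summits. The pooled share was 54.4% over the 90 genes, the 24 included, and 45.3% over all protein-coding genes. Gene length and number of start sites were not matched.

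Of 13 other recognition genes, 4 were bound. GNBP3, which encodes a sensor of fungal glucans, ranked 596. GNBP1 and GNBP2 share a summit between their start sites at rank 778, and PGRP-LE, an intracellular peptidoglycan sensor, ranked 5959. PGRP-LA and PGRP-LD were not bound. Of 12 genes of the protease cascade upstream of Spätzle, 2 were bound. They were Spn27A, a serpin that restrains the cascade, at rank 2115, and modSP, an apical protease, at rank 6963. The proteases ea and gd were not bound.

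Of 12 relatives of Spätzle and Toll, 3 were bound: spz3 at rank 2996, 18w at rank 5408 and Toll-7 at rank 5823. NT1 and spz4 were not. Of 8 genes that act downstream of Toll, 3 were bound. The kinase gene pll, which encodes Pelle, ranked 1830 with its summit 85 bp upstream, also near the start site of TfIIA-L. Traf6 ranked 3635 and Deaf1 ranked 3739, while cactin and Gprk2 were not bound.

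Of 10 genes that act downstream of imd, 2 were bound: ben, which encodes a ubiquitin-conjugating enzyme, at rank 3096, and IKKbeta, a kinase of the Relish pathway, at rank 6568. Diap2 and Dredd were not. Of 11 regulators of Imd signalling, 5 were bound. POSH, a ubiquitin ligase gene, had the strongest start-site summit among the 90, at rank 199, with ranks of 183 in replicate 1 and 265 in replicate 2. It was followed by the deubiquitinase genes scny at rank 1208 and CYLD at rank 2561, and by Charon at rank 2846. The genes akirin and cad were not bound. These groups are small, and no test was made between them.

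**Figure D4:**
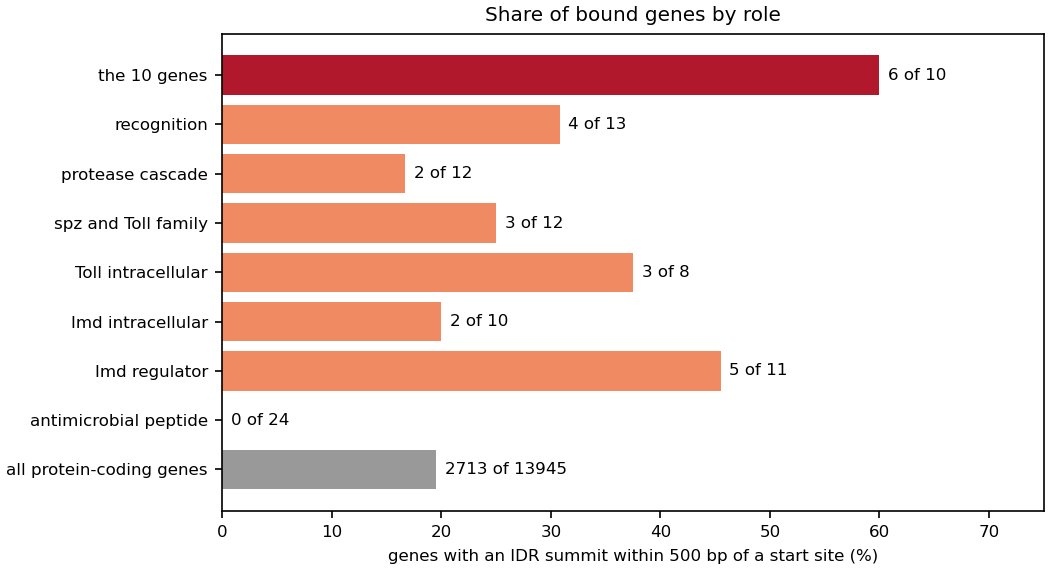
Bars give the share of genes in percent, from 0, that were bound, as defined by the 500 bp distance, and the numbers beside them are bound genes of all genes in the group. The 10 genes stand at 6 of 10, the antimicrobial peptide genes at 0 of 24, and all protein-coding genes at 2713 of 13945.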

How the data were processed

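ChIP-seq of GFP-tagged CG17806 was made on 2 biological replicates of whole pupae aged 24 hours. Per the labels, chromatin was sonicated, and the notes that accompany the deposited lists say that each replicate list was called against a control alignment, the pooled list on both replicates and the control, and the IDR list from the other 3, all on dm6. The aligner, peak caller and IDR threshold were not given in the sources used here. Depth is likewise unknown, and control reads were not used here. The deposited signal per peak has no stated scale and served only for ranks within a list. All IDR peaks share the highest −log10 q-value of the deposited pooled list. Summits are the deposited interval start plus the deposited offset.

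Start sites of all transcripts and gene spans came from Ensembl release 115, and sequence from the RefSeq copy of Release 6, the same assembly as dm6. All peaks lay within its arms. A gene counted as bound if any of its start sites had a summit of the IDR list at most 500 bp away. Partners are summits within 100 bp. Analyses used Python 3.11.15 with pandas 2.3.3 and numpy 2.4.6. The assignment was tested on simulated data. No test of the lists was made: the genes, gene lists and settings were chosen with earlier results of these data known, and shares stand beside those of all protein-coding genes. With 1 group and no counts, no interval or p-value is given, and 2 replicates limit the precision of every rank. Named were the 10 genes, genes with a start site within 500 bp of their summits or nearest to them, and per other role up to 4 bound genes of best rank and the first 2 unbound by alphabet. Neighbours with a start site within 500 bp of the summits of bound pathway genes were also named. So were the peptide genes that share a pooled summit. Alternatives were other distances, peak thresholds and lists, nearest start sites only, each replicate alone, and other windows.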

Additional observations from a re-analysis of the deposited data

How the results depend on the processing

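The count of bound genes among the 10 was 6, and it was 2 within 250 bp, 7 within 1000 bp (Tl added), 1 among the 1911 strongest IDR peaks, 10 in the pooled list and 4 with nearest start sites only. Without replicate 1, that is in the strongest 7645 peaks of replicate 2, it was 4 (Dif and dl lost), and without replicate 2 it was 6 (PGRP-LB lost, PGRP-SA added). Over all protein-coding genes the share of 19.5% became 14.7% within 250 bp, 23.3% within 1000 bp, 6% among those 1911 peaks, 45.3% in the pooled list, 14.6% with nearest start sites only, and 19.3% to 20.5% with a replicate left out. The other pathway genes bound went to 6 among those 1911 peaks and 49 in the pooled list, and were 16 to 21 under the other alternatives. The genes with a summit inside numbered 3 among those 1911 peaks, and 4 to 7 under the other alternatives. The mean A or T share at the summits ranged from 65.0% in the pooled list to 73.0% among those 1911 peaks. The cause of these shifts was not tested beyond what each setting removes or adds. No paired analysis was possible because there is 1 group.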

Other observations

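None of the 24 antimicrobial peptide genes held an IDR summit inside. Of all 90 other genes of both pathways, 11 held one inside the gene (12.2%), against 14.2% of all protein-coding genes. Of these, 7 were not bound at a start site and were chosen for mention after their values were seen. The ubiquitin-conjugating enzyme gene eff, the transcription factor gene nub and the kinase gene Gprk2 each held 2, and Tab2, Tak1, Myd88 and Tollo each held 1. Another 4 were bound at a start site and also held IDR summits inside: dnr1 held 3, scny held 2, and PGRP-LE and spz3 held 1 each. In each of these genes, 1 of the summits inside may be the start-site summit itself. Pooled summits within 500 bp of a start site were absent at Tak1 and nub, and ranked 9107 at Tollo, 9524 at eff, 12135 at Gprk2, 23598 at Tab2 and 25992 at Myd88.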
